A study of Mus musculus with 6 samples.

Results

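The histone mark H3K27ac (lysine 27 of H3, acetylated), which active promoters and enhancers carry, was examined at the genes of the Fc receptors for IgG, of 3 membrane adaptors of activating receptors and of the kinase Syk. The set comprised 8 of the 21755 protein-coding genes of the GENCODE M21 basic annotation (autosomes and X): the 4 receptors Fcgr1, Fcgr2b, Fcgr3 and Fcgr4, the 3 adaptors Fcer1g, Tyrobp and Hcst, and the kinase Syk. Members were chosen by name, and their peaks were those within 1 kb of a transcription start site (TSS), inside the gene body, or up to 50 kb to either side, in each library. The cells were alveolar macrophages (AMs), which live in the lung's air spaces and clear inhaled particles, obtained by bronchoalveolar lavage and cell sorting from 9-week-old WT C57BL/6J mice. No treatment or mutant was included. H3K27ac was profiled by HT-ChIPmentation, in which the transposase inserts sequencing adapters into chromatin held on the antibody beads. There were 6 samples: 1 library with the Active Motif antibody, 2 replicate libraries with the Cell Signaling antibody, and 3 inputs without antibody, which entered only as controls of the deposited peak calls. The title of the Active Motif library reads only H3, and it was taken as H3K27ac from the title of the series and the methods of the study, which all its values below rest on.

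An Fc receptor binds the constant part of an antibody and so lets a phagocyte recognise an opsonised particle. Most activating receptors have no signalling motif of their own and borrow one, the immunoreceptor tyrosine-based activation motif (ITAM), from a small adaptor in the membrane. SRC family kinases phosphorylate the ITAM, Syk docks on it through its paired SH2 domains, and the signal passes on to phagocytosis, the oxidative burst and cytokine production, while inhibitory receptors recruit phosphatases that counter it.

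The Active Motif library held 36364 peaks, Cell Signaling replicate 1 held 56175 and Cell Signaling replicate 2 held 49139, covering 26.1, 45.8 and 59.8 Mb. Read depth was not used here, the labels do not say whether the replicates came from separate animals, and the antibodies cannot be told apart from the sequencing run, sonication or depth. An absent peak means only that none passed the authors' threshold. All 10 AM marker genes, among them Siglecf, Marco and Pparg, had a promoter peak in each of the 3 libraries. Of the marker lists of other cells, no mast cell or basophil gene (0 of 7) had one in any library, while Ms4a1, Klrb1c, S100a8 and Epcam had one in both Cell Signaling libraries, Scgb1a1 and Scgb3a2 in replicate 1, Ccr2 and Cx3cr1 in replicate 2, and Xcr1 and Clec9a in all 3. Ms4a1, a B cell gene, was at 4.18-fold in replicate 1 but 41.2-fold in replicate 2, and the part of such cells in the results below was not tested. A peak in a sorted population does not tell how many of them carried the mark.

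Each of the 8 genes had a promoter peak in each of the 3 libraries. Over all protein-coding genes the share with a promoter peak was 40.9% in the Active Motif library, 47.9% in Cell Signaling replicate 1 and 48.9% in replicate 2, and 40.8% of genes had one in all 3. With 1 library of one antibody and 2 of the other, all from 1 cell type, no test was made, and values are given per library beside those of all genes. The strength of a promoter is given as the fold of its strongest peak, that is the enrichment at the summit over the local background as written by the authors' peak caller. Because folds of separately called libraries are not on 1 scale, each is accompanied by the share of genes with a promoter peak in the same library whose fold was lower. The −log10 q-value of these member peaks ranged from 11.8 to 104 in the Active Motif library, from 63.0 to 300.1 in Cell Signaling replicate 1 and from 45.4 to 173 in replicate 2.

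The DNA next to the start sites is shown first. RefSeq promoter sequences (GRCm38.p6, the assembly called mm10) were at hand for 7 of the 8 genes, all but Tyrobp. The 250 bases upstream of the RefSeq start were searched on both strands for 11 words of known factor types. The word GAGGAA is of the type bound by PU.1, the factor that drives the macrophage lineage. It was found in 4 of 7 genes (Fcgr1, Fcgr3, Fcgr4 and Syk), against 25.9% of the 27025 genes with an entry. It lay 55 to 50 bases before the start of Fcgr1, 6 to 1 before that of Fcgr3, 22 to 17 before that of Fcgr4 and 9 to 4 before the RefSeq start of the internal promoter of Syk. In the 3 receptors the word was on the strand opposite to the gene and so reads TTCCTC below. In Fcgr4 it was part of the longer word GAGGAAGT, which 2.79% of all genes held. The last 120 of these bases are printed 5′ to 3′ along the gene, with the words found in capitals, to show how close to the start the words of the receptors lay and what the adaptor promoters Fcer1g and Hcst look like without them. Up to 29 of the bases nearest the start belong to an exon of another annotated transcript of the gene.
Fcgr1, chr3:96293970-96294089, minus strand: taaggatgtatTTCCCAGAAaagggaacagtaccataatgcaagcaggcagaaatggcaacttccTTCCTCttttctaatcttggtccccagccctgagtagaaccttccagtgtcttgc
Fcgr3, chr1:171059404-171059523, minus strand: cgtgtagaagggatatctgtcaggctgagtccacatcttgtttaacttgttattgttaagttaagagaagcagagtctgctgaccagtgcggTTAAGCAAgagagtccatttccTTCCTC
Fcgr4, chr1:171018806-171018925, plus strand: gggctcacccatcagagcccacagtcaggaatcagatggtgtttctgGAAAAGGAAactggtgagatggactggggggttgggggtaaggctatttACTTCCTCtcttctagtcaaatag
Fcer1g, chr1:171234350-171234469, minus strand: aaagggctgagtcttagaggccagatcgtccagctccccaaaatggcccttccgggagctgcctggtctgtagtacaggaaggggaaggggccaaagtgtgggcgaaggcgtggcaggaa
Hcst, chr7:30419855-30419974, minus strand: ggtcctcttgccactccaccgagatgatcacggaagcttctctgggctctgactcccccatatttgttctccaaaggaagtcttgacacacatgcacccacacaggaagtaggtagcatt
Syk, chr13:52596762-52596881, plus strand: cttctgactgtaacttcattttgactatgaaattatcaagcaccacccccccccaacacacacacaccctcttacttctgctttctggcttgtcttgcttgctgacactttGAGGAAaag

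Besides GAGGAA, the capitals mark a STAT type word (TTCNNNGAA, 8.13% of all genes) in Fcgr1, a C/EBP type word (TTGCNNAA, 10.8%) in Fcgr3, and an IRF type word (GAAANNGAA, 8.18%) in Fcgr4. Farther upstream Fcgr2b held AGGTCA, the core word of nuclear receptors (15.8%), 211 to 206 bases before its start, where the bases also belong to an exon of another transcript of the gene. Fcer1g, Hcst and the upstream promoter of Syk held none of the 11 words in this window, which for Syk was exonic in another transcript over all 250 bases. The remaining words were in no member: TGANTCA of AP-1 (7.82% of all genes), TGTGGTT of RUNX (5.08%), the E-box CACGTG (6.86%), the GC box GGGCGG (35.4%) and TATAAA (14.3%). A match is a description of the letters and not a binding site. A promoter without these words may hold shorter or variant ones, which were not searched.

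Among the receptors, Fcgr1 encodes the high-affinity receptor for IgG. The gene lies at chr3:96282909-96293969 on the minus strand. Its promoter fold was 8.10 in the Active Motif library, 22.3 in Cell Signaling replicate 1 and 29.6 in replicate 2. These values were higher than those of 30.7%, 56.4% and 56.6% of genes with a promoter peak. Fcgr1 therefore sat in the lower part of the Active Motif list and just above the middle of both others. Its Active Motif peak, of 774 bp, began 155 bp inside the gene and left the start itself uncovered, whereas the Cell Signaling peaks of 2027 and 2316 bp ran over it, reaching 226 and 388 bp upstream.

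Fcgr2b encodes the inhibitory Fc receptor, the member of the family with an inhibitory motif in its own tail. It lies at chr1:170958617-170976547 on the minus strand. Its promoter fold was 8.52 in the Active Motif library, 21.9 in Cell Signaling replicate 1 and 19.6 in replicate 2, above 33.6%, 55.7% and 31.7% of genes. It was the lowest of the 8 genes in both Cell Signaling libraries and next to lowest in the Active Motif library. As in Fcgr1, the Active Motif peak stopped short of the start, by 6 bp from the nearer of its 2 TSS. The body of the gene carried many small peaks, with 5, 9 and 6 of them outside the promoter windows, whose folds reached at most 6.40, 13.1 and 16.8.

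Fcgr3 encodes a low-affinity activating receptor that signals through Fcer1g. It lies at chr1:171051174-171064935 on the minus strand, with the TSS used here at 171059403. Its promoter fold was 16.9 in the Active Motif library, 25.8 in Cell Signaling replicate 1 and 22.2 in replicate 2. The corresponding shares of genes with a lower fold were 74.8%, 63.6% and 38.5%, so that its place in the list differed more between libraries than that of any other member. The summits lay 242, 132 and 470 bp inside the gene. The 5′ end of the gene record is 5.53 kb farther upstream, where Cell Signaling replicate 2 had a peak within 1 kb, with a fold of 7.63, and the other 2 libraries had none.

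Fcgr4 encodes an activating receptor of intermediate affinity that also depends on Fcer1g. It lies at chr1:171018920-171029761 on the plus strand. Its promoter fold was 14.0 in the Active Motif library, 48.0 in Cell Signaling replicate 1 and 38.7 in replicate 2, above 63.9%, 91.0% and 78.5% of genes. It was the strongest receptor promoter in both Cell Signaling libraries and came after Fcgr3 in the Active Motif library. In each library the peak ran across the start but had its summit upstream, at 1050, 1326 and 1094 bp before the TSS. With the summit required inside the 1 kb window, Fcgr4 had a fold of 5.26 in the Active Motif library, the lowest of the receptors, and no promoter peak in either Cell Signaling library. No peak lay in the body of Fcgr4 outside the promoter window in any library.

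Of the adaptors, Fcer1g encodes the common gamma chain, which carries the ITAM for Fcgr1, Fcgr3 and Fcgr4. The gene, at chr1:171229572-171234365 on the minus strand, is 4794 bp long. Its promoter fold was 23.4 in the Active Motif library, 41.1 in Cell Signaling replicate 1 and 47.8 in replicate 2, above 89.5%, 85.0% and 93.6% of genes. The peak was 3305, 3806 and 4791 bp wide, so that peaks covered 53.3%, 58.3% and 73.2% of the gene. Each of these folds exceeded those of all 4 receptors in the same library, with the exception of Fcgr4 in Cell Signaling replicate 1.

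Tyrobp encodes DAP12, an adaptor with an ITAM that serves receptors of the TREM, SIRP and C-type lectin families, and Hcst encodes DAP10, which carries a motif for phosphoinositide 3-kinase in place of an ITAM. The genes lie tail to tail on chromosome 7, Tyrobp at 30413760 to 30417585 on the plus strand and Hcst at 30417712 to 30419854 on the minus strand, with 126 bp between them. In both Cell Signaling libraries 1 peak covered the pair, 12999 bp wide with a fold of 71.5 in replicate 1 and 13080 bp wide with a fold of 53.3 in replicate 2. These folds exceeded those of 99.5% and 98.2% of genes with a promoter peak, and the value belongs to both genes and to the promoter of their neighbour Nfkbid. The Active Motif library resolved the stretch into 5 peaks, the strongest of 2676 bp at Tyrobp with a fold of 21.3 (above 85.6% of genes) and of 7654 bp at Hcst with a fold of 34.5 (above 98.3%). The single summit that the caller gave lay 74 bp upstream of Hcst in Cell Signaling replicate 1, and 2762 bp upstream of it in replicate 2 and 2812 bp in the Active Motif library, inside Nfkbid, so the fold at the start of Tyrobp itself can be read only from the Active Motif list.

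Syk encodes the kinase that docks on phosphorylated ITAMs. It is the longest of the 8 genes (65620 bp, chr13:52583173-52648792, plus strand) and has 3 TSS in the annotation, a pair at the 5′ end and an internal one at 52596853. Its promoter fold was 31.1 in the Active Motif library, 53.4 in Cell Signaling replicate 1 and 47.6 in replicate 2, above 96.7%, 94.3% and 93.2% of genes. Peaks also ran over the internal TSS, with folds of 21.1, 31.4 and 37.3. In Cell Signaling replicate 2 that peak was 11202 bp wide, with its summit 6417 bp downstream of the internal TSS. The value of 37.3 is therefore not the fold at the internal start. At the 5′ end the Active Motif summit lay 1141 bp from the nearest TSS. With the summit required inside the 1 kb window, the Syk fold in that library was 21.1. The widths of the peak at the 5′ end were 3963, 8103 and 11268 bp.

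**Figure D1:**
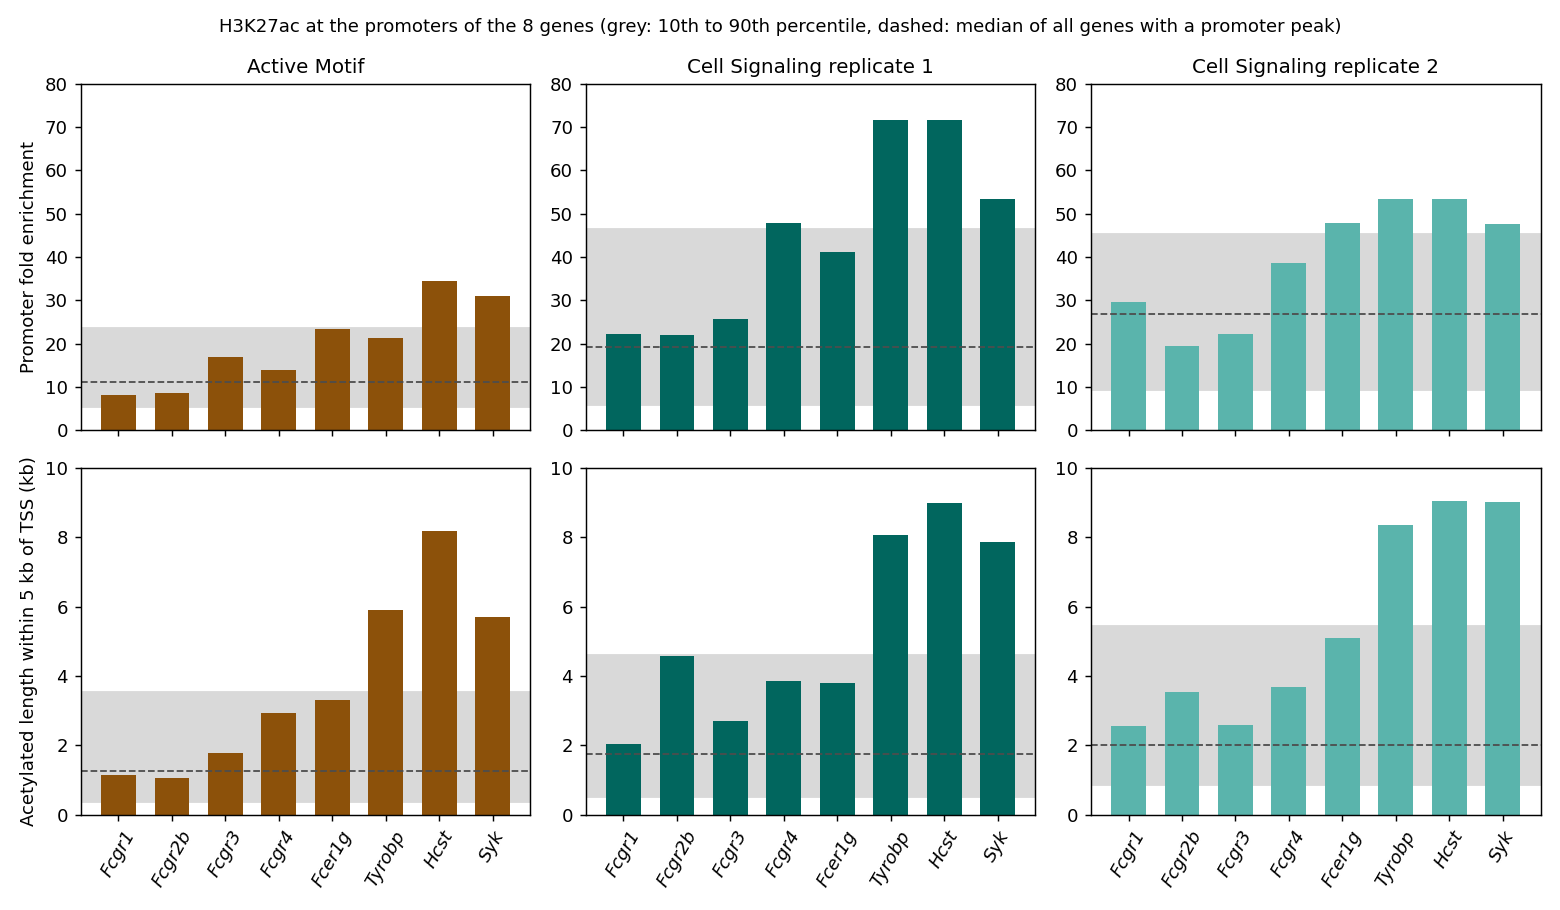
Promoter fold enrichment (upper row, strongest peak within 1 kb of a TSS) and bases covered by peaks within 5 kb of the TSS in kb (lower row) of the 8 genes in the 3 libraries, with 1 bar per gene and library. The grey band spans the 10th to 90th percentile and the dashed line is the median of all genes with a promoter peak: Tyrobp, Hcst and Syk stood above the band in length in each library, from 5.70 to 9.05 kb, and Fcgr1 and Fcgr2b lay below the median fold in the Active Motif library.

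Over the 8 genes the median promoter fold was 19.1 in the Active Motif library, against 11.1 over all genes with a promoter peak. It was 44.5 in Cell Signaling replicate 1, against 19.2 over all genes, and 43.1 in replicate 2, against 26.9, and with the joint peak of Tyrobp and Hcst counted once it was 41.1 and 38.7. The number of members above the median of all genes was 6, 8 and 6, the exceptions being Fcgr1 and Fcgr2b in the Active Motif library and Fcgr2b and Fcgr3 in Cell Signaling replicate 2. The receptors had lower folds than most of the adaptors and Syk. In the Active Motif library the 4 receptors ranged from 8.10 to 16.9 and the adaptors and Syk from 21.3 to 34.5, without overlap. In Cell Signaling replicate 2 the ranges were 19.6 to 38.7 and 47.6 to 53.3, again without overlap, while in replicate 1 they were 21.9 to 48.0 and 41.1 to 71.5, where Fcgr4 exceeded Fcer1g. The upper ends of 34.5, 53.3 and 71.5 come from the peak at Hcst that also covers the Nfkbid promoter. In the Cell Signaling libraries this peak stands for both Tyrobp and Hcst. Its summit lay inside Nfkbid in the Active Motif library and in replicate 2. The lower ends of 21.3 and 47.6 were those of Tyrobp and Syk.

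Ordered by the mean of the Cell Signaling replicates, the joint peak of Tyrobp and Hcst came first with 62.4 ± 12.9 (SD, n = 2). In the Active Motif library the peaks at the starts of Tyrobp and Hcst were separate. There Hcst was first and Tyrobp came after Syk and Fcer1g. That Hcst peak also covered the promoter of Nfkbid, and its summit lay inside Nfkbid, 2812 bp upstream of Hcst. Syk followed in the Cell Signaling mean with 50.5 ± 4.11, Fcer1g with 44.5 ± 4.72 and Fcgr4 with 43.3 ± 6.56. Then came Fcgr1 with 26.0 ± 5.20, Fcgr3 with 24.0 ± 2.50 and Fcgr2b with 20.7 ± 1.67. These SDs include the difference in scale between the libraries, so neighbours were compared within each replicate. The joint peak was above Syk, Fcgr4 above Fcgr1 and Fcgr3 above Fcgr2b in both replicates. The order of Syk and Fcer1g, of Fcer1g and Fcgr4 and of Fcgr1 and Fcgr3 differed between the replicates.

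By the length of acetylated chromatin around the start, Tyrobp, Hcst and Syk were the longest in each library. The receptors fell in a different order from that by fold. Within 5 kb of the TSS the members had a median of 3126.5 bp in the Active Motif library, against 1274 bp over all genes with a promoter peak, 4206 bp against 1750 bp in Cell Signaling replicate 1, and 4392 bp against 2012 bp in replicate 2. Tyrobp, Hcst and Syk, and none of the other 5, exceeded the 90th percentile of all genes in each library. Hcst had 8189, 8994 and 9051 bp of the 10 kb around its start in peaks, more than 99.5%, 99.3% and 98.8% of genes. These 10 kb also take in part of Tyrobp and the start of Nfkbid, 1.88 kb upstream of Hcst, so the length is not that of Hcst alone. The windows of Tyrobp and Hcst overlap, and in both Cell Signaling libraries they lie on the same joint peak. Fcgr1, at the other end, had 1138, 2027 and 2546 bp, and Fcgr2b had 1062 bp in the Active Motif library but 4565 and 3553 bp in the Cell Signaling libraries. The Cell Signaling mean of Fcgr2b (4059 bp) was the longest of the receptors, before Fcgr4 (3761.5 bp), although its fold was the lowest.

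Peaks inside the gene and outside its promoter windows were less general. They were present in 5 of the 8 genes in the Active Motif library, in 3 in Cell Signaling replicate 1 and in 4 in replicate 2, against 17.3%, 28% and 27.1% of all protein-coding genes. Fcgr2b, Fcgr3 and Syk had them in all 3 libraries, Fcgr1 and Tyrobp in the Active Motif library, and Fcer1g in Cell Signaling replicate 2. These counts depend on how far the promoter peak extends, since the Cell Signaling peaks over Tyrobp took in the whole gene. Syk held most of the body peaks, with 17 of 30 in the Active Motif library, 23 of 35 in replicate 1 and 25 of 39 in replicate 2, and peaks covered 33.2%, 45.4% and 60.3% of its length. The strongest of them reached folds of 19.4, 48.0 and 38.3.

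**Figure D2:**
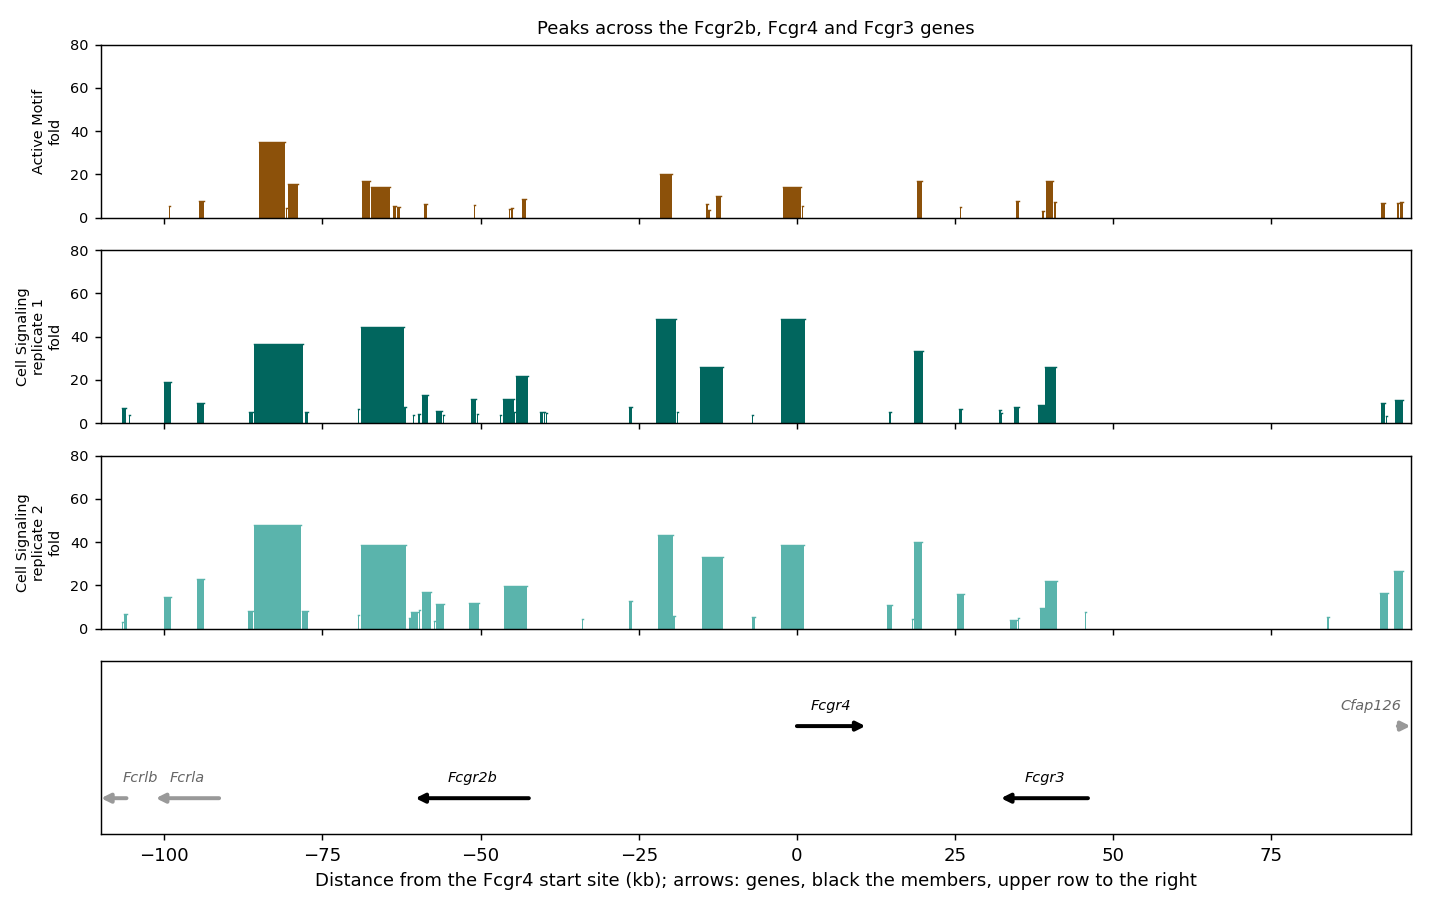
Peaks of the 3 libraries across the Fcgr2b, Fcgr4 and Fcgr3 genes. The x axis gives the distance from the Fcgr4 start site in kb, block width is the width of a peak and block height its summit fold, and arrows mark genes (black for members, upper row for genes reading to the right). In the Cell Signaling libraries the tallest blocks had replicate 1 summits 81.9, 67.2, 20.8 and 1.33 kb to the left of the Fcgr4 start and 19.5 kb to the right. The one at 1.33 kb ran across the Fcgr4 start, and the others stood between and behind the genes. In the Active Motif library the block across the Fcgr4 start (14.0) was lower than that at the Fcgr3 promoter (16.9).

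With 50 kb on either side, the 8 genes fell into 5 stretches of DNA, since Fcgr2b, Fcgr4 and Fcgr3 share 1 of 206 kb and Tyrobp and Hcst share 1 of 106 kb. The stretches held 90 Active Motif peaks, 109 peaks of Cell Signaling replicate 1 and 108 of replicate 2. Peaks of both Cell Signaling replicates were merged where they overlapped by at least 1 bp, and the stretches that held a peak of each, called shared regions, numbered 65 at these loci of 29277 in the genome. Of the 65, 45 had an Active Motif peak (69.2%), against 61.5% genome-wide. The 8 regions at member promoters (1 over Tyrobp and Hcst, 2 at Syk) all had one, as had 10 of 16 in member bodies. So had 12 of 16 at promoters of other genes, 2 of 4 in bodies of other genes and 13 of 21 between genes. The 61.5% covers regions of every place, and no genome-wide share was worked out per place. The 8 of 8 nearly follows from the Active Motif promoter peak already given for every member. Promoter peaks were found for 10414 protein-coding genes in Cell Signaling replicate 1 and for 10629 in replicate 2. In 8883 genes each of the 3 libraries showed one. The 20 regions without an Active Motif peak had mean Cell Signaling folds of 3.98 to 10.03, with a median of 5.81, and the 45 with one had 6.18 to 62.4, with a median of 28.3. In the reverse direction 88 of 90 Active Motif peaks at the loci had a partner in Cell Signaling replicate 1 and all 90 in replicate 2, beside 96.6% and 99.5% of all Active Motif peaks.

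**Figure D3:**
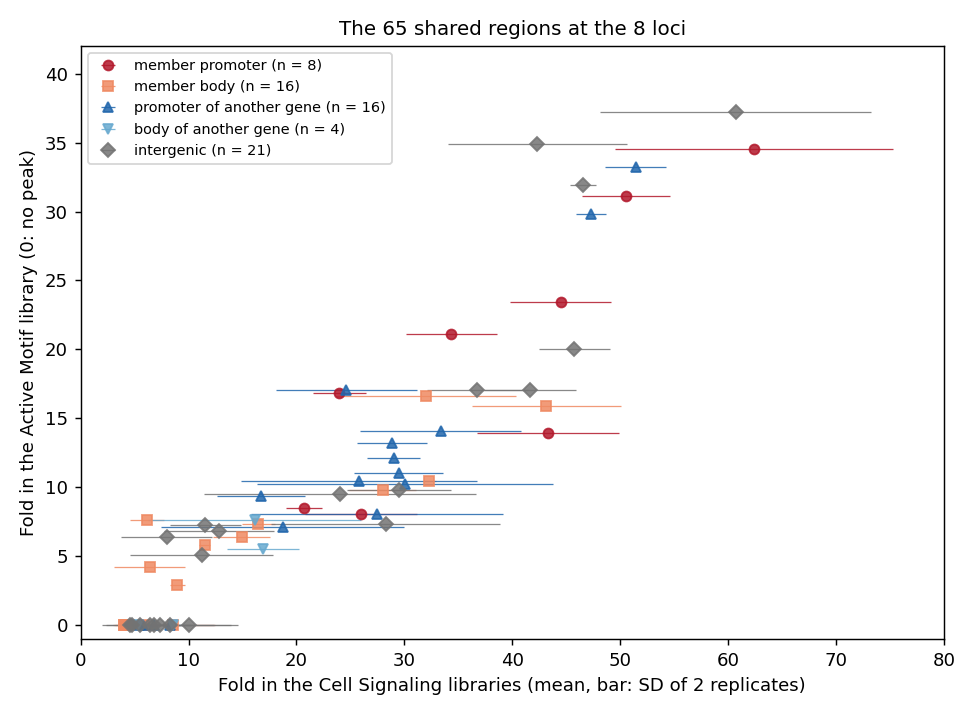
The 65 regions shared by the Cell Signaling replicates at the 8 loci. The x axis gives the mean fold of both replicates (bar: SD, n = 2) and the y axis the fold of the strongest Active Motif peak, with 0 where there was none. Regions without an Active Motif peak lay at mean folds of 10.03 or less, and none of them was at a member promoter.

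Several intergenic regions of the Fcgr cluster had folds above those of the promoters of Fcgr2b and Fcgr3, and the one at chr1:170996724-170999737, described below, exceeded all 4 receptor promoters in each library. A region of 8425 bp at chr1:170933161-170941585, 39.1 kb from the start of Fcgr2b and beyond the 3′ end of that gene, had folds of 34.9 in the Active Motif library, 36.5 in Cell Signaling replicate 1 and 48.2 in replicate 2. It was wider than 98.2% of the shared regions of the genome. A further region of 7109 bp at chr1:170950023-170957131, 24.4 kb from the start of Fcgr2b, had folds of 17.04, 44.6 and 38.6. Set against 8.52, 21.9 and 19.6 at the Fcgr2b promoter, both regions had the higher fold in each library. On the same side lie Fcrlb and Fcrla, relatives of the Fc receptors. The promoter of Fcrla had no peak, and that of Fcrlb had folds of 6.92 and 6.62 in the Cell Signaling libraries and no peak in the Active Motif library.

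In the 42.4 kb between the 5′ ends of Fcgr2b and Fcgr4, which point away from each other, a region at chr1:170996724-170999737 lay 21.5 kb upstream of Fcgr2b and 20.8 kb upstream of Fcgr4. Its folds were 20.02 in the Active Motif library, 48.0 in Cell Signaling replicate 1 and 43.4 in replicate 2, above those of 95.2% and 93.8% of all shared regions in the Cell Signaling libraries. A weaker one at chr1:171003662-171007233, 12.2 kb upstream of Fcgr4, had folds of 9.80, 26.1 and 32.9. In the 21.4 kb between the 3′ ends of Fcgr4 and Fcgr3 a region at chr1:171037363-171038821 had folds of 17.04, 33.4 and 40.1, against 16.9, 25.8 and 22.2 at the Fcgr3 promoter. Which of these genes a region acts on cannot be read from peak positions.

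The Fcgr1 locus differed in that its strong flanking peaks lay at histone genes. The strongest covered the promoter of Hist2h4, 31.1 kb downstream of the Fcgr1 start, with folds of 33.2, 53.4 and 49.5, and Hist2h2aa1 came next with 29.8, 48.3 and 46.3. A region over Hist2h2aa2 and Hist2h3c2 had folds of 10.2, 20.4 and 39.7. Copies of these histone genes are nearly identical in sequence, and the authors kept only alignments above a quality limit. Reads that match several copies may therefore be missing from these peaks. Of the 2 intergenic shared regions of this stretch, the stronger lay 7.37 kb upstream at chr3:96300008-96303145, with folds of 7.35, 35.7 and 20.8, against 8.10, 22.3 and 29.6 at the promoter.

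At Fcer1g the flanks held promoters of other genes and no shared region between genes. The strongest was that of Tomm40l, a mitochondrial import gene, with folds of 14.1, 28.1 and 38.6. That of Ppox, a haem synthesis gene that shares the region with the body of Usp21, had folds of 12.1, 27.3 and 30.7. Neither reached the fold of the Fcer1g promoter in the same library (23.4, 41.1 and 47.8).

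Around Tyrobp and Hcst the flanks were almost empty apart from 1 region. At chr7:30392242-30395198, 19.5 kb upstream of Tyrobp, the folds were 31.9 in the Active Motif library, 45.7 in Cell Signaling replicate 1 and 47.4 in replicate 2. In the Active Motif library this was above the Tyrobp peak itself (21.3), and in the Cell Signaling libraries it was below the joint peak (71.5 and 53.3). The other 2 of the 3 strongest shared regions of these flanks had no Active Motif peak and folds of 3.84 in replicate 1 and of 12.8 and 10.9 in replicate 2. The whole stretch held 6, 5 and 8 peaks, fewer than any of the other 4 stretches in the same library. Peaks nevertheless covered 12.8%, 15.4% and 17.4% of it, a larger share than of the Fcer1g and Fcgr1 stretches in each library.

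The region with the highest fold outside the promoters lay 10.6 kb upstream of Syk, at chr13:52571166-52578350. Its folds were 37.2 in the Active Motif library, 69.6 in Cell Signaling replicate 1 and 51.8 in replicate 2, above the Syk promoter (31.1, 53.4 and 47.6) in each. It exceeded 99.5% and 98.8% of all shared regions in the Cell Signaling libraries and was 7185 bp wide. Inside the gene, regions 18.5 kb and 22.6 kb downstream of the internal start had Cell Signaling folds of 48.0 and 38.3, and of 31.9 and 32.7, with Active Motif folds of 15.9 and 10.5. Peaks covered 17.8%, 24.3% and 31.3% of the Syk stretch, the largest share of the 5 stretches in each library.

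**Figure D4:**
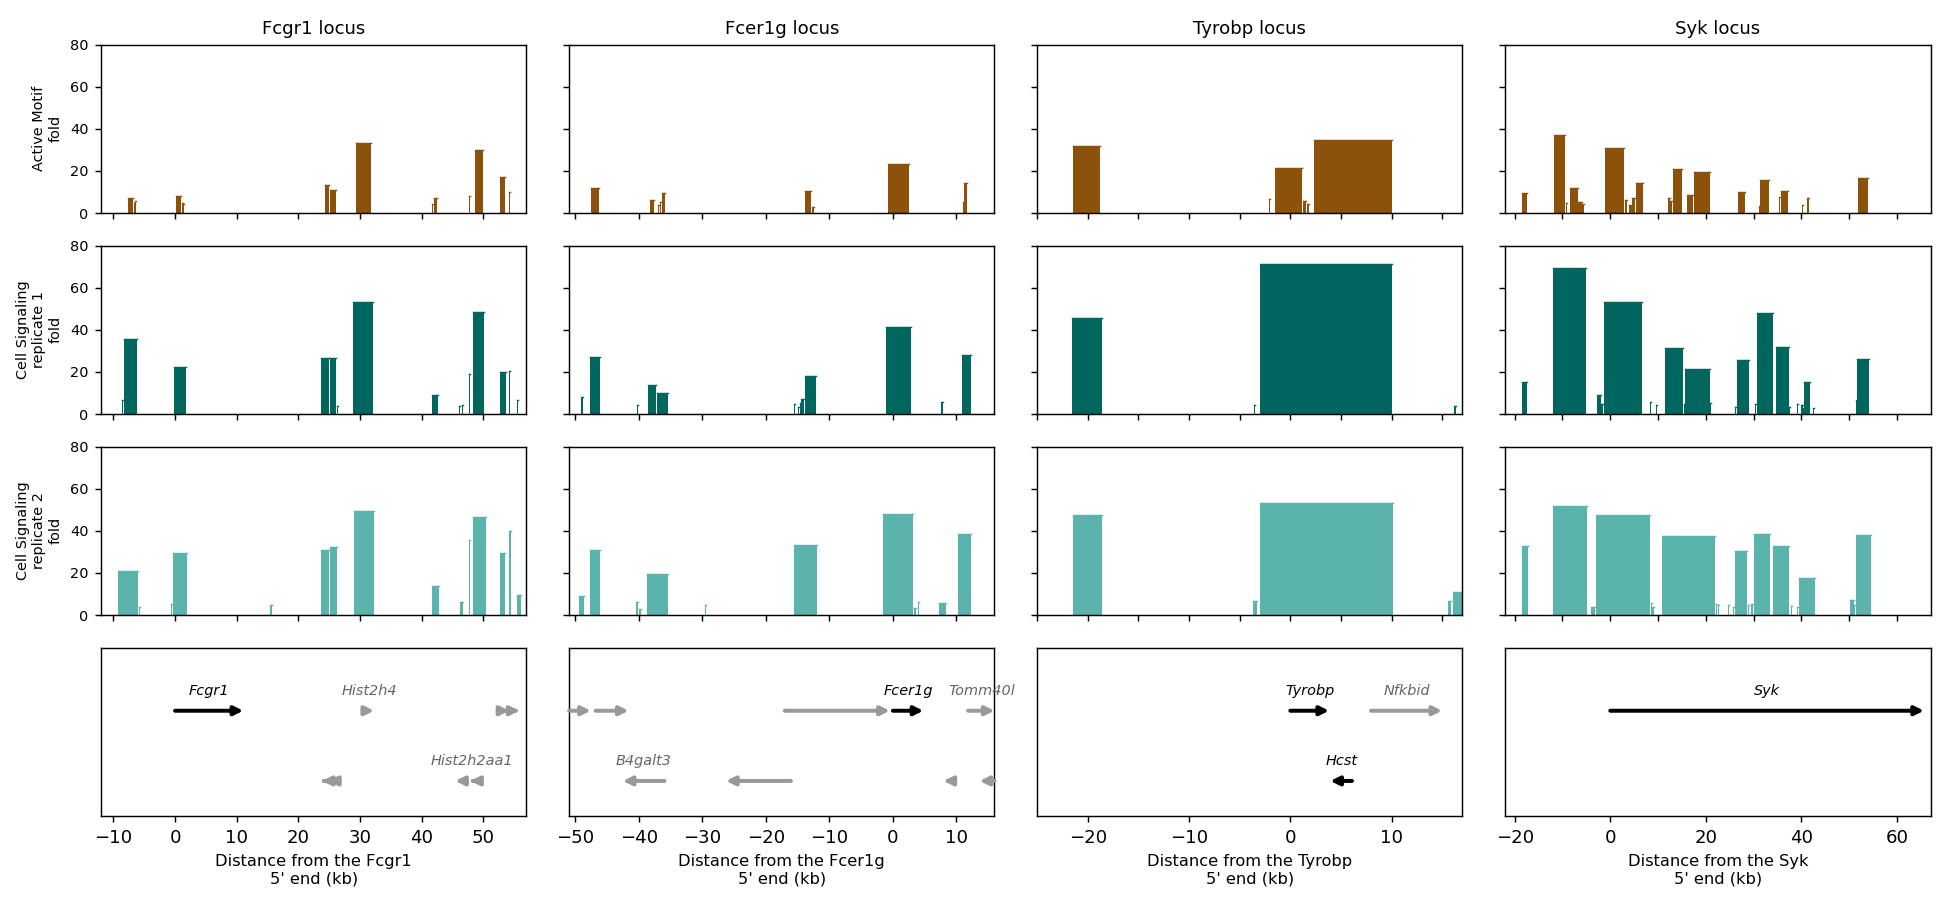
Peaks at the Fcgr1, Fcer1g, Tyrobp with Hcst, and Syk loci in the 3 libraries. Each x axis gives the distance from the 5′ end of the named gene in kb, read along that gene, block width is peak width and block height the summit fold, and arrows mark the members (black) and some of their neighbours (grey). The joint Cell Signaling block over Tyrobp and Hcst had folds of 71.5 and 53.3, and the block 10.6 kb upstream of Syk had folds of 69.6 and 51.8.

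The centres of the strongest intergenic regions of the Fcgr cluster and of Syk are printed as 250 bases around the summit of Cell Signaling replicate 1, again with words in capitals. The window of the strongest intergenic region near Fcgr1 held none of the words searched and is not printed. That of the Tyrobp and Hcst stretch is not printed either. The window between Fcgr2b and Fcgr4 held a C/EBP type word, a RUNX word and a TATA word. The window upstream of Syk held the PU.1 type word GAGGAA, the nuclear receptor word and the TATA word, the last on both strands in overlapping copies.
Fcgr2b to Fcgr4 interval, chr1:170997951-170998200, plus strand: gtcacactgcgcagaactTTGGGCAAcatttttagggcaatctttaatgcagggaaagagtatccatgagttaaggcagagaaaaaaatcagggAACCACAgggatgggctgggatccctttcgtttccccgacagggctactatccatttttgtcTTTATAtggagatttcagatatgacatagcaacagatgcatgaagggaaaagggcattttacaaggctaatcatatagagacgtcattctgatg
Upstream of Syk, chr13:52572466-52572715, plus strand: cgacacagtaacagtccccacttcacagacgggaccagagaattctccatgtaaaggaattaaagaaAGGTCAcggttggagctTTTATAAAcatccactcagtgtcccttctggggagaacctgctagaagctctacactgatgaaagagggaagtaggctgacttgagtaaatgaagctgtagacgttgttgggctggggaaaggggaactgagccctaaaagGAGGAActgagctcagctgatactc

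Over the summit windows of the 65 shared regions, GAGGAA was present in 13 (20%), against 30.2% of the windows of all 29277 shared regions. AGGTCA was present in 14 (21.5%, against 15.8%), TTCNNNGAA in 9 (13.8%, against 8.45%) and TATAAA in 12 (18.5%, against 13.1%). TGANTCA was present in 8 (12.3%, against 9.40%), TTGCNNAA in 8 (12.3%, against 11.9%) and GAAANNGAA in 5 (7.69%, against 9.62%). TGTGGTT was present in 4 (6.15%, against 6.59%) and GAGGAAGT in 3 (4.62%, against 5.03%). GGGCGG was present in 4 (6.15%, against 15.1%) and CACGTG in 0, against 4.74%. No test of these shares was made, so no word is called enriched or depleted at these loci.

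**Figure D5:**
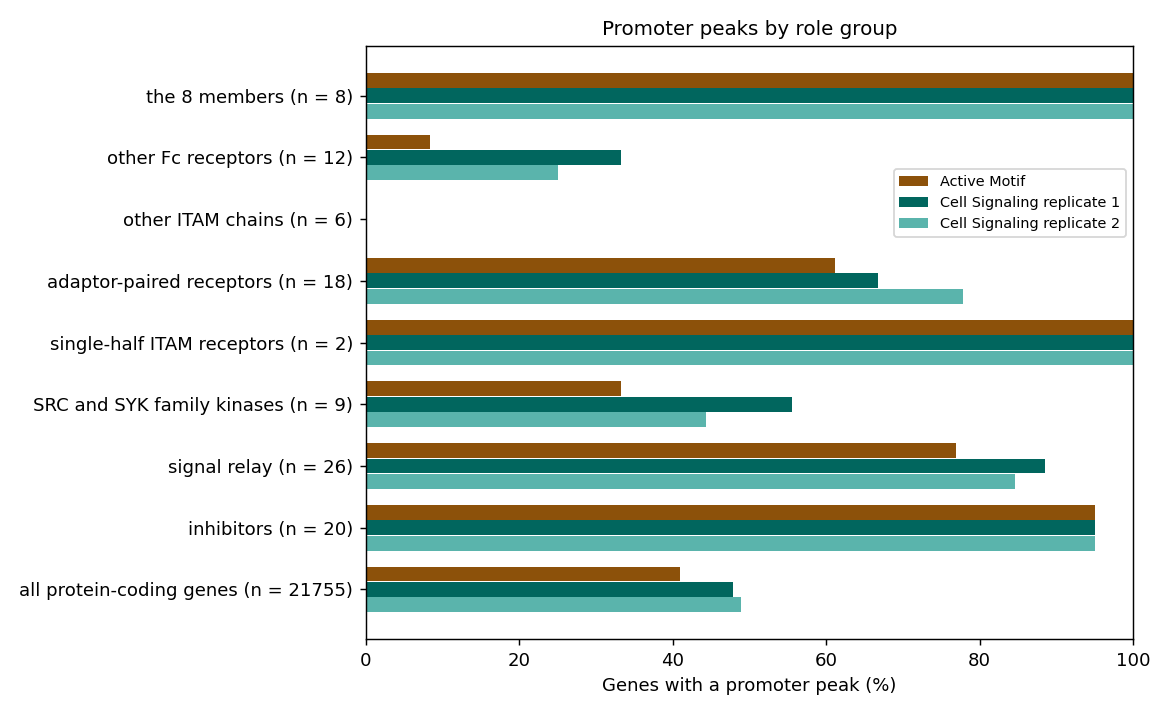
Share of genes with a promoter peak (x axis, percent) in each role group of the pathway and in each library, with the number of genes in the group in parentheses. The 8 members stand at 100%, the inhibitors at 95% in each library, the other ITAM chains at 0, and all protein-coding genes at 40.9%, 47.9% and 48.9%.

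The other genes of the pathway were taken from a list of 94, of which 93 matched a protein-coding gene (the annotation gives Clec7a as a polymorphic pseudogene). Of the 93, 56 had a promoter peak in the Active Motif library, 65 in Cell Signaling replicate 1 and 64 in replicate 2 (60.2%, 69.9% and 68.8%). Other Fc receptors mostly lacked one, with 1, 4 and 3 of 12. Fcgrt, the neonatal receptor that recycles IgG, had folds of 5.89, 12.3 and 26.2, and Trim21, a cytosolic antibody receptor, had 10.8 and 17.3 in the Cell Signaling libraries, as Fcrlb had weak ones. Pigr, which carries IgA across epithelium, had a fold of 4.52 in replicate 1. Fcer1a and Ms4a2, chains of the IgE receptor of mast cells, and Fcer2a, Fcamr, Fcrl1, Fcrl5, Fcrls and Fcrla had none in any library.

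None of the 6 other ITAM chains, Cd3d, Cd3e, Cd3g and Cd247 of the T cell receptor and Cd79a and Cd79b of the B cell receptor, had a promoter peak in any library, beside 3 of 3 libraries for Fcer1g and Tyrobp. Receptors that pair with an adaptor of the set had one in 11, 12 and 14 of 18. The strongest were Sirpb1c, an activating SIRP family receptor, with 15.7, 59.6 and 50.7, Trem1, which amplifies inflammatory responses, with 18.0, 54.2 and 42.8, and Clec4n (Dectin-2), a receptor for fungal mannans, with 23.5, 41.3 and 49.3. Trem3 had one in both Cell Signaling libraries, Pira2 and Oscar in replicate 2, and Siglech, Gp6, Klrk1 and Klrd1 in none. Clec1b and Clec9a, whose tails carry a single YxxL tyrosine motif (hemITAM), had promoter peaks in all 3 libraries. Clec9a is also on the dendritic cell list, and its folds were 3.43, 41.9 and 30.9, beside 25.1, 42.3 and 38.4 for Clec1b, a receptor best known from platelets.

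Of the 9 other SRC and SYK family kinases 3 had a promoter peak in the Active Motif library, 5 in Cell Signaling replicate 1 and 4 in replicate 2. Lyn (20.9, 61.5 and 52.2) and Fgr (23.9, 32.7 and 47.8), SRC kinases of myeloid cells, were among those with one in all 3. Fyn had one in both Cell Signaling libraries (7.69 and 7.26) and Src in replicate 1 (4.997). Yes1, Lck, Blk and Zap70, the last of them the counterpart of Syk in T cells, had none.

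Genes that relay the signal had promoter peaks in 20, 23 and 22 of 26. Lcp2, the scaffold SLP-76, had folds of 14.3, 55.7 and 54.6, Pik3ap1, an adaptor of phosphoinositide 3-kinase, had 26.8, 55.7 and 54.6, and Gab2, a docking protein, had 33.6, 52.7 and 48.4. Vav3 and Sos1 had a peak in the Cell Signaling libraries, Blnk in replicate 1, and Lat and Lat2 in none. Inhibitors had one in 19 of 20 in each library. Lilrb4a, an inhibitory receptor of the immunoglobulin family, had 38.8, 75.7 and 56.2, Sirpa, the receptor of the CD47 signal, had 42.7, 69.6 and 56.2, and Sla, an adaptor that lowers receptor levels, had 19.9, 63.0 and 52.0. Lilrb4a exceeded the promoter folds of all 8 members in each library, and Sirpa did so in the Active Motif library and Cell Signaling replicate 2. Sla2 was the inhibitor without a promoter peak.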

How the data were processed

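H3K27ac HT-ChIPmentation was analysed in 3 libraries from sorted AMs. The authors trimmed reads with Cutadapt, aligned them to mm10 with Bowtie2, removed duplicates and filtered alignments by quality. They called peaks in each library with MACS3 against input at a q-value of 0.05. For every peak, the deposited lists hold the fold enrichment (ratio) at the summit, the −log10 of its q-value and the summit offset in bp. Groups were taken from the sample labels. A promoter peak overlapped by at least 1 bp the 1 kb on either side of any TSS of a protein-coding gene in the GENCODE M21 basic annotation. A body peak overlapped the gene outside these windows. Flanks reached 50 kb. Python 3.11.15, numpy 2.4.6, pandas 2.3.3 and matplotlib 3.10.9 were used, and the counting steps were tested on simulated data. Promoter sequences were from RefSeq (GRCm38.p6). The members and lists were chosen with earlier results of these data known. Named were all members and, of the pathway list, the 3 genes per role group with the highest mean rank of promoter fold in the Cell Signaling replicates and those with a promoter peak in some or no libraries. Marker genes with any promoter peak and genes at the 3 strongest flank regions of a member were also named. Results for some of these genes are not reported here. No test was made. Alternatives were other promoter windows, start sites, flanks, q-values, peak numbers, overlaps and leaving out a replicate.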

Additional observations from a re-analysis of the deposited data

How the results depend on the processing

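Of 153 values of 23 results under 13 alternative settings, 143 stayed within the limits set for a change (1.5 times for counts, 1 SD for folds, the Wilson interval of 57.2 to 79.1 for the share with an Active Motif peak) and 10 moved. Folds with 1 of the 2 replicates left out cannot pass the limit of 1 SD, so their place among the 143 says nothing about stability. With the summit required inside the window, 5 of the 8 members kept a promoter peak in Cell Signaling replicate 2 (46.3% of all genes), where the summits of Fcgr4, Tyrobp and Hcst lay outside. With a promoter window of 3 kb, 3 members had a body peak in the Active Motif library (14.2% of all genes). At a q-value of 1e-05 the loci held 71 peaks of Cell Signaling replicate 2. The share of shared regions with an Active Motif peak was 83.3% when each list was cut to the 36364 strongest peaks (73% genome-wide) and 37.0% when peaks had to overlap by 50% of both (30.6% genome-wide). With either Cell Signaling replicate left out, all peaks of the remaining one took the place of the shared regions. These values moved with that change of definition and do not measure dependence on a replicate. The peaks numbered 108 to 109, of which 42.6% to 45.9% had an Active Motif peak, against 37.6% and 38.3% genome-wide. The promoter folds then ranged from 22.3 to 29.6 for Fcgr1, 19.6 to 21.9 for Fcgr2b, 22.2 to 25.8 for Fcgr3, 38.7 to 48.0 for Fcgr4, 41.1 to 47.8 for Fcer1g, 53.3 to 71.5 for Tyrobp and Hcst and 47.6 to 53.4 for Syk. Fcgr3 gave no mean with the 5′ end of the gene record as its only start. Start sites of all GENCODE transcripts, an alternative chosen after seeing the data, gave 59, 68 and 67 pathway genes with a promoter peak and stayed within these limits. With the joint peak of Tyrobp and Hcst counted once, also chosen after seeing the data, the members' median promoter fold was 39.9 in the mean of the Cell Signaling replicates. No paired analysis was possible because no result comes from a test and 1 antibody has a single library. The study provides sequencing quality data, but read depth was not used here, so the depth behind an absent peak was not examined.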
